A study of Mus musculus with 12 samples.

Results

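The imprinted genes with known roles in growth control, H19, Igf2, Igf2r, Meg3, Rian, Mirg, Grb10, Ndn, Peg3 and Dlk1, were looked up by name in RNA-seq of LSK cells from WT and Fancg KO mice. Of these 10 genes, 6 have a row among the 35999 genes of the expression table, and the noncoding H19, Meg3, Rian and Mirg were not analysed here. The 6 genes, Grb10, Igf2r, Ndn, Igf2, Peg3 and Dlk1, gave few reads in these cells: none reached a mean signal of 10. The one with most reads, Grb10, rested on approximately 2.15 to 13.17 reads per library. None of the 6 differed between KO and WT in an exact permutation test. Igf2 and Dlk1, above 0 in 4 of 12 libraries each, could not have reached a p under 0.05 in it. Ndn came closest, with 18 reads over the 6 WT libraries and 2 over the 6 KO libraries. Grb10 ran from a signal of 4.16 to 6.07 in the WT libraries and from 2.32 to 19.3 in the KO libraries. A test of this difference in spread, added after the values were seen, did not pass without both libraries numbered 3 (permutation test, p = 0.119). Nor did it pass without WT replicate 3 and KO replicate 7 (permutation test, p = 0.0714).

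LSK cells (Lin-, Sca-1+ and KIT+) are a small part of the bone marrow in which hematopoietic stem cells and early multipotent progenitors are found. They were sorted from mice labelled WT or Fancg KO (Fancg-/-, without the FANCG subunit of the Fanconi anemia core complex, which acts in the repair of DNA interstrand crosslinks), with 1 library per mouse and 6 mice of each genotype, numbered 2 to 7 in both. The labels give no treatment for either group, and the age, sex and strain of the mice are not given in the sources used here. Values are called signal, an estimate of the reads of a gene after scaling of each library by its size factor.

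At an imprinted gene the copy from one parent is expressed alone or mainly, at some genes only in certain tissues. Which copy it is is often set by DNA methylation laid down in the egg or the sperm. Expression by parental copy was not measured here. Many imprinted genes act on growth in opposite directions: Igf2 is a growth factor expressed from the paternal copy, whereas the maternally expressed Igf2r encodes the receptor that takes IGF2 to the lysosome, and Grb10 encodes an adaptor that dampens signals of the insulin and IGF1 receptors. In blood, several imprinted genes are known as part of a network that is highly expressed in long-term stem cells and associated with their quiescence, and Ndn encodes Necdin, a protein that restrains the cell cycle.

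Reads per library were estimated by dividing the total signal by the most frequent low value, taken as the signal of 1 read, and came to 1.24e+06 to 2.47e+06. At this depth 3 reads correspond to 1.21 to 2.43 CPM (reads scaled to the total of the library), an estimate that covers counting error only. Ndn, annotated with 1 transcript, had whole reads in all 12 libraries. Grb10, annotated with 9, had a whole number of reads in 1 of 12, although it shares no 31-base stretch with other genes. For genes with several transcripts the read numbers are approximate, and the source of the fractions was not tested. Lars2 took 15.6 to 36.2% of the signal of a library. The signal of the targeted gene, Fancg, had a minimum of 4.76, a median of 8.59 and a maximum of 24.1 in the WT libraries, and 4.46, 7.91 and 14.5 in the KO libraries (two-sided exact permutation test, p = 0.636), so it did not check the labels. KO and WT below mean libraries labelled so. WT replicate 3 and KO replicate 7 were low in the summed signal of 4 Y-linked genes (26.6 and 49.7, against 189 to 435 in the other 10 libraries). Both libraries numbered 3 were unlike their label in the pseudogene Gm18853, whose signal was 0 to 0.0304 in 5 WT libraries but 19.2 in the WT library numbered 3, and 15.1 to 70.9 in 5 KO libraries but 1.84e-05 in the KO library numbered 3. The comparisons of the members were therefore also made without these pairs of libraries. Of the markers of the gate, Kit had a mean signal of 336 in WT and 351 in KO. Ly6a, which encodes Sca-1, was low, with 11.5 in WT and 10.1 in KO. Of 13 markers of mature lineages, 4 had a higher mean over the 12 libraries than Ly6a (10.8). These were Nkg7 (42.7), Itgam (25.7), Ly6c2 (22.4) and Csf1r (21.96). Of the 13 markers, 7 had a mean signal under 1. The purity of the sort was not tested.

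The sequences upstream of Ndn and Grb10 are given because the comparisons turn on these 2 genes. DNA methylation falls on CG pairs, which are marked, and nothing measured here ties these windows to an imprint. Each line is the 250 bases before a RefSeq transcription start in the mouse build GRCm38.p6, read 5′ to 3′ on the strand of the gene, with CG in capitals. Ndn has 1 start among the RefSeq windows, at chr7:62348027-62348276 on the plus strand, and Grb10 has 2 on the minus strand, upstream at chr11:12037421-12037670 and downstream at chr11:12027972-12028221.
Ndn: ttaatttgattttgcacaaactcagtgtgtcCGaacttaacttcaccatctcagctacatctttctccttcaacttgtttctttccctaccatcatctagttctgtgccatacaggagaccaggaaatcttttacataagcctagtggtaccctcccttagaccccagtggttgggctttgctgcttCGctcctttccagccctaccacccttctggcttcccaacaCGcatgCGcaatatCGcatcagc
Grb10 upstream: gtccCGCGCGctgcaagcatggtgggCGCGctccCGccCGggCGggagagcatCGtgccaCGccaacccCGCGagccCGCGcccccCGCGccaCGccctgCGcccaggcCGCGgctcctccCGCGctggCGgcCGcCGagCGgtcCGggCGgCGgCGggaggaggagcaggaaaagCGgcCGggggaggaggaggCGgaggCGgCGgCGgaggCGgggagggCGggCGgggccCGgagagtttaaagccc
Grb10 downstream: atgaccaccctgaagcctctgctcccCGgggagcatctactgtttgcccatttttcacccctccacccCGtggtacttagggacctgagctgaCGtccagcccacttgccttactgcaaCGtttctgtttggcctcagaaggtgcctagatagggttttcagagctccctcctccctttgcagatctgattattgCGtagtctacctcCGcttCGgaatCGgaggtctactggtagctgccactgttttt
All 3 windows lie inside the longer gene models of GENCODE M21, whose Ndn model starts at position 62346569, so a start upstream of these windows is annotated as well. The Ndn window holds 5 CG pairs, close to the median of 6 over 32851 promoter windows of the same length. The upstream Grb10 window holds 40, a number that 1.31% of windows reach, and the downstream window holds 8. Of the 10 genes, 9 had such windows, 14 in all. Igf2r held 27 CG pairs, Peg3 and Dlk1 8 each, Mirg 10 and Rian 0. The 2 windows of Meg3 held 10 and 0, and the 4 windows of Igf2 held 1, 6, 10 and 22. The motif GCCATNTT, a core of the site bound by YY1, was searched on both strands and was in none of these 14 windows, against 3.91% of all windows. Methylation was not measured, so these sequences describe the genes and not their state in LSK cells.

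Grb10 (ENSMUSG00000020176.17, chr11:11930508-12038683, minus strand, GRCm38) is the adaptor of the growth factor receptors and the member with the highest signal. Its signal was 4.42, 5.46, 6.07, 4.16, 5.77 and 4.38 in WT replicates 2 to 7, and 2.32, 2.64, 3.81, 11.0, 8.66 and 19.3 in KO replicates 2 to 7. In KO replicates 2, 3 and 4 it lay below all WT libraries, and in KO replicates 5, 6 and 7 above all of them. The means of 5.05 ± 0.820 (SD, n = 6) in WT and 7.94 ± 6.55 (SD, n = 6) in KO gave a log2 fold change of 0.26 on the log2(signal + 1) scale, used for all fold changes below (95% interval -0.68 to 1.20, two-sided exact permutation test, p = 0.582). A difference in mean level was not detectable with this spread, and without WT replicate 3 and KO replicate 7 the log2 fold change was -0.020 (exact permutation test, p = 0.968).

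Igf2r (ENSMUSG00000023830.14, chr17:12682406-12769664, minus strand), the receptor that clears IGF2, was above 0 in all 12 libraries. Its signal was 4.02, 2.31, 2.20, 2.35, 1.05 and 1.94 in WT replicates 2 to 7, and 1.18, 1.18, 2.34, 1.02, 1.13 and 3.21 in KO replicates 2 to 7. These are approximately 0.834 to 3.46 reads per library, and the groups overlapped. The means were 2.31 ± 0.965 (SD, n = 6) in WT and 1.68 ± 0.897 (SD, n = 6) in KO, with a log2 fold change of -0.32 (95% interval -0.99 to 0.36, exact permutation test, p = 0.197).

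Igf2 (ENSMUSG00000048583.16, chr7:142650766-142666816, minus strand), the growth factor ligand, was listed at 0 in 8 of 12 libraries. The libraries above 0 were WT replicate 5 at 0.139, KO replicate 2 at 0.442, KO replicate 5 at 4.63 and KO replicate 6 at 1.13. Most of the signal in the KO group came from KO replicate 5, where it corresponds to 5.55 reads. The means were 0.0231 ± 0.0567 (SD, n = 6) in WT and 1.03 ± 1.81 (SD, n = 6) in KO, and the log2 fold change of 0.65 (95% interval -0.14 to 1.45) did not pass the exact permutation test (p = 0.182). With 4 libraries above 0, no arrangement of them over the labels could have given a p under 0.05 in this test, so it could not decide. Igf2 shares 63.1% of its 31-base stretches with other annotated transcripts, mostly of the read-through gene Gm49394 and of Igf2os, so its reads could have been divided among them, and its level is uncertain. Gm49394 was listed at 0 in all 12 libraries.

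Ndn (ENSMUSG00000033585.5, chr7:62346569-62350262, plus strand), the gene of Necdin, is expressed from the paternal copy within the cluster that in humans is linked to Prader-Willi syndrome. Its signal was 7.22, 2.31, 5.14, 1.35, 1.25 and 0 in WT replicates 2 to 7, and 0, 0, 0, 0, 0 and 3.21 in KO replicates 2 to 7. It was above 0 in 5 of 6 WT libraries and in 1 of 6 KO libraries, and the groups overlapped through WT replicate 7 and KO replicate 7. The values were whole reads within 0.02 in every library, 6, 2, 7, 2, 1 and 0 in WT replicates 2 to 7, and 2 in KO replicate 7.

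**Figure D1:**
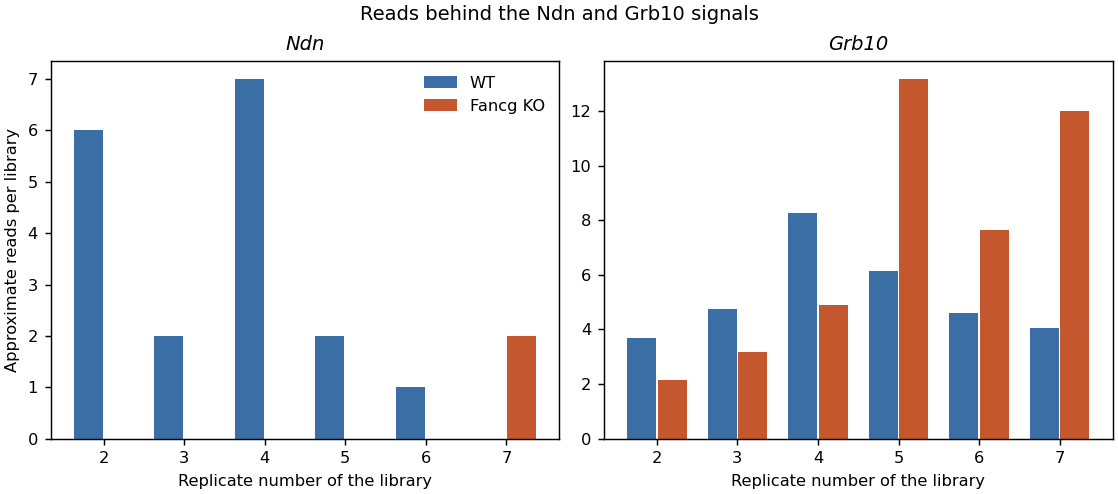
Approximate reads (y axis) of Ndn (left) and Grb10 (right) in each library, by replicate number (x axis), with WT in blue and Fancg KO in orange; each bar is 1 library and a missing bar is 0 reads. Ndn had up to 7 reads in a WT library and 2 in KO replicate 7 alone of the KO libraries, and Grb10 had 2.15 to 13.17 reads.

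The means of Ndn were 2.88 ± 2.74 (SD, n = 6) in WT and 0.535 ± 1.31 (SD, n = 6) in KO. The log2 fold change was -1.29 (standard error 0.52, 95% interval -2.42 to -0.16), and the two-sided exact permutation test over the 12 libraries gave p = 0.0541. Over the summed reads, 1.47 CPM in WT and 0.176 CPM in KO, the ratio of KO to WT was 0.120 (exact 95% interval 0.0134 to 0.499, counting error only). The variance of the Ndn reads was 2.67 times their mean in the WT libraries, so this interval is narrower than the spread between mice allows. The summed signal of 9 marrow stroma markers ran from 101 to 128 in WT and from 75.1 to 112 in KO (exact permutation test, p = 0.0065, not adjusted). The same test was run on the sums of the other gene lists, which gave p = 0.123 to 0.983 (exact permutation tests). Of the 9 markers, 6 had a mean signal under 1, among them Col1a1 (0.401), Cxcl12 (0.185), Pdgfra (0.0191) and Lepr (0.285), and Col3a1 was listed at 0. The sum was made up almost wholly of Pdgfrb, at 90.1 in WT and 69.3 in KO, and Lum, at 23.3 and 20.96, while Lepr had 0.117 in WT and 0.452 in KO. Stroma is outside the Lin- Sca-1+ KIT+ gate. The part of these markers in the Ndn values was not tested. In bulk RNA, fewer cells of a type and less RNA per cell cannot be told apart.

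Peg3 (ENSMUSG00000002265.16, chr7:6703892-6730431, minus strand) encodes a zinc finger protein expressed from the paternal copy. Its signal was above 0 in WT replicates 4, 5 and 7, at 0.658, 0.561 and 1.36, and in KO replicates 2 and 6, at 1.79 and 0.508. The means of 0.430 ± 0.546 (SD, n = 6) in WT and 0.383 ± 0.718 (SD, n = 6) in KO differed by -0.09 on the log2 scale (95% interval -0.74 to 0.56, exact permutation test, p = 0.848). Dlk1 (ENSMUSG00000040856.17, chr12:109452823-109463336, plus strand), a membrane protein related to the Notch ligands and the coding neighbour of Meg3, Rian and Mirg, was the lowest member. It reached 0.307 in KO replicate 2, 0.171 in WT replicate 2, 0.154 in WT replicate 7 and 0.119 in KO replicate 3, and was listed at 0 in the other 8 libraries. All these values are below 1 read, so neither a level nor a difference could be read for Dlk1 (log2 fold change 0.02, 95% interval -0.21 to 0.25, exact permutation test, p = 1).

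**Figure D2:**
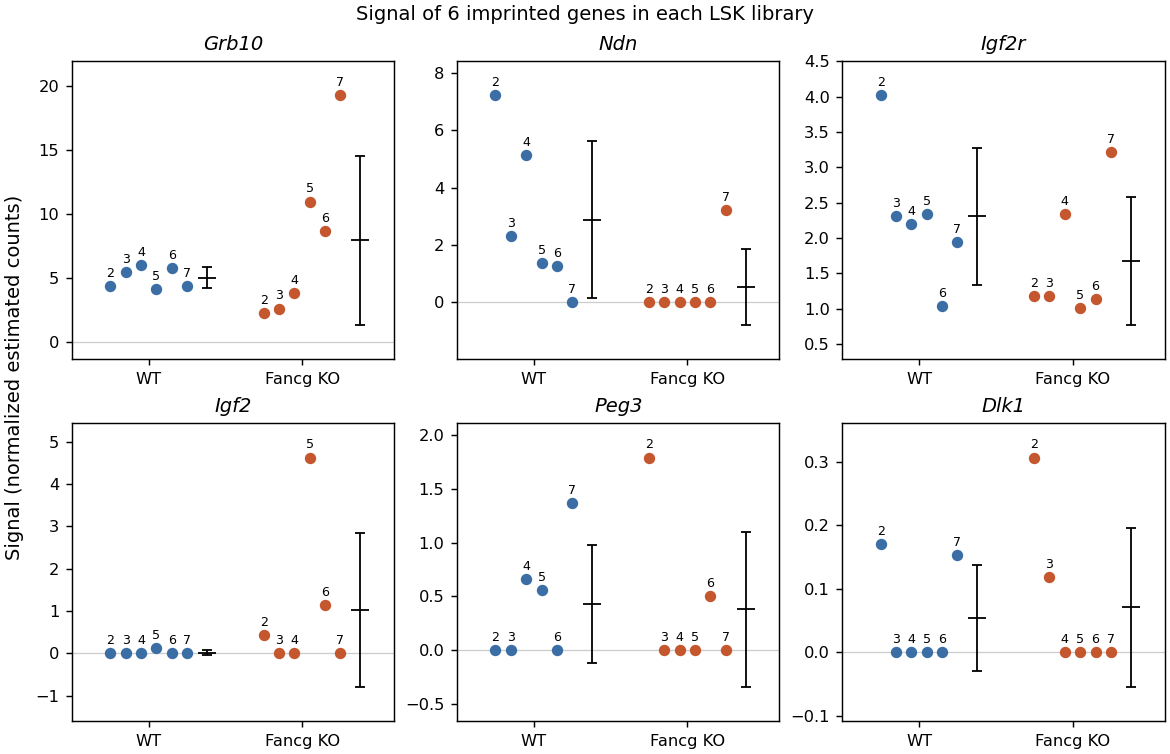
Signal (y axis, normalized estimated counts) of the 6 genes in each library, 1 panel per gene with its own scale, WT in blue and Fancg KO in orange; numbers are replicate numbers and bars are the mean with the SD over 6 libraries. Ndn is above 0 in KO replicate 7 alone of the KO libraries, and the KO libraries of Grb10 lie on both sides of the WT libraries.

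The members without a row lie in 2 clusters. H19 (chr7:142575529-142578143, minus strand), a maternally expressed RNA, is the neighbour of Igf2. Meg3 (chr12:109541001-109571726), Rian (chr12:109603940-109661716) and Mirg (chr12:109729764-109749460), all on the plus strand, are maternally expressed RNAs of the Dlk1 cluster. Of the 13359 long noncoding gene names in GENCODE M21, 8 have a row here. The planned correlations within both clusters therefore had no values.

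Compared per length, as signal per kilobase of exon, the order of the levels was Grb10 (0.715), Ndn (0.462), Igf2r (0.214), Igf2 (0.0923), Peg3 (0.0305) and Dlk1 (0.0111). No neighbours in this order differed beyond the spread over the 12 libraries (exact sign-flip tests, unadjusted p = 0.275, 0.180, 0.174, 0.63 and 0.109 in this order, 5 tests). Within the groups, Igf2 had a mean of 0.00404 signal per kilobase in WT and 0.181 in KO, and Igf2r of 0.248 in WT and 0.180 in KO. The mean of the ligand was thus below that of its clearing receptor in WT. In KO the means of both were alike, but most of the Igf2 signal was in KO replicate 5, and Igf2 was listed at 0 in KO replicates 3, 4 and 7.

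The question behind the comparison of KO with WT is which transcripts change in stem and progenitor cells that lack a Fanconi anemia protein. Among the 6 members, 0 had an exact permutation p under 0.05, against 2.86% of the 21536 genes. Igf2 and Dlk1 could not have had such a p, with 4 libraries above 0 each. In a limma fit without a filter on low values, Ndn alone of the members had an unadjusted p under 0.05, against 3.88% of the 21536 genes. Its unadjusted p from limma was 0.0286 and its adjusted p was 0.889, with Benjamini-Hochberg adjustment over all genes. The adjusted p from limma was 0.889 for Igf2 and Igf2r as well, 0.943 for Grb10, 0.989 for Peg3 and 0.995 for Dlk1.

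**Figure D3:**
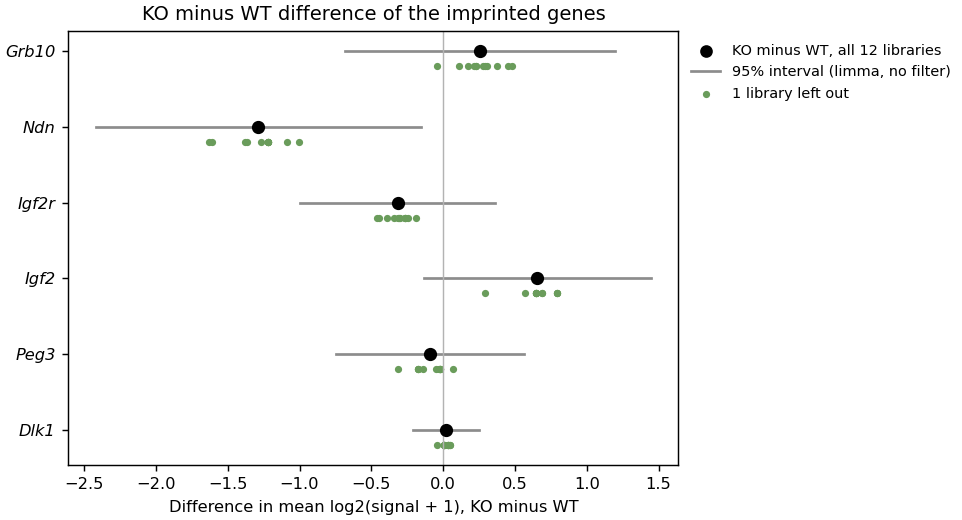
Difference in mean log2(signal + 1), KO minus WT (x axis), for the 6 genes (y axis); the black point is all 12 libraries, the grey line the 95% interval from limma without a filter, and green points the 12 fits that each left out 1 library. The interval of Ndn lies below 0, from -2.42 to -0.16, and the other 5 intervals include 0.

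Ndn stood apart from the other members in that its interval did not include 0. Among the 5519 genes with a mean signal of 1 to under 10, to which Ndn, Grb10 and Igf2r belong, 4.20% had an exact permutation p under 0.05. The pattern of Ndn, above 0 in at least 5 WT and at most 1 KO library, was shared by 11 of these 5519 genes, or 0.199%, and the reverse pattern was seen in 12, or 0.217%. Ndn was thus 1 of a few genes with this pattern, which was as frequent in one direction as in the other. The test of Ndn moved with single libraries. With each library left out in turn, the exact permutation p ran from 0.0108 to 0.132. It was 0.0108 without WT replicate 7, the only WT library without Ndn reads, and 0.0152 without KO replicate 7, the only KO library with Ndn reads (exact permutation tests). It was 0.132 without WT replicate 2 and 0.0996 without WT replicate 4, which held most Ndn reads, 0.0909 without any 1 of KO replicates 2 to 6, and 0.0541 without any 1 of WT replicates 3, 5 and 6 (exact permutation tests). Without the libraries numbered 3, the log2 fold change of Ndn was -1.20 (exact permutation test, p = 0.127), and without WT replicate 3 and KO replicate 7, low in Y-linked signal, it was -1.61 (exact permutation test, p = 0.0476).

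The spread between libraries differed among the members. The SD of the Grb10 log2 values was 0.20 in WT and 1.05 in KO, beside medians of 0.60 and 0.66 over 3776 genes whose mean signal was within 2 times its own. For Igf2r both SDs were low, at 0.41 in WT and 0.44 in KO, beside medians of 0.82 and 0.89. For Ndn they were 1.09 in WT and 0.85 in KO, beside medians of 0.81 and 0.88. Igf2, like Grb10, had a narrow spread in WT and a wide one in KO, with SDs of 0.077 and 0.99, but 5 of its 6 WT libraries were at 0. A test of spread was added after these values had been seen, so its p for Grb10 is a description and not support. The mean distance of the Grb10 log2 values from the median of their label was 0.17 in WT and 0.89 in KO, a difference of 0.72. A two-sided permutation test of these distances gave p = 0.0022, the lowest possible for 6 libraries against 6. Each label was centred on its own median first, so this p is not exact. The same permutation test gave p = 0.340 for Ndn and p = 0.905 for Igf2r. Over the 5519 genes of like signal, 5.31% had p under 0.05, of which 197 were wider in KO and 96 wider in WT. Of the 5519 genes, 68 reached the smallest p. Each KO library lay outside the WT range, with libraries on both sides, in 45 genes including Grb10, or 0.815%, and the reverse was seen in 17, or 0.308%.
The approximate Grb10 reads ran from 3.67 to 8.27 in WT and from 2.15 to 13.17 in KO. They varied less in WT, with a variance of 0.554 times the mean, than in KO, with 2.96 times the mean. At so few reads counting error enters each value, so the narrow WT range cannot be read as a constant level. Without both libraries numbered 3 the difference in spread was 0.63 (permutation test, p = 0.119), and without WT replicate 3 and KO replicate 7 it was 0.50 (permutation test, p = 0.0714). Over 19 alternatives the difference in spread ran from 0.47 to 0.78, and the permutation p was under 0.05 in 17. These 17 changed the scale of the same values or left out 1 library, and none left out both libraries of a pair in doubt. The other 2 were the ones without these pairs. The Lars2 share of the KO libraries was 17.0, 18.3 and 24.7% in KO replicates 2 to 4, where Grb10 was low, and 30.5, 35.1 and 29.5% in KO replicates 5 to 7, where it was high. In WT replicates 2 to 7 the Lars2 share was 19.04, 15.6, 32.3, 29.0, 36.2 and 30.1%, while Grb10 stayed between 4.16 and 6.07. The part of the Lars2 share in the spread of Grb10 was not tested.

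Some imprinted genes outside the 10 members reached higher signals, given per gene and not per length. Of 67 further imprinted genes, 62 have a row, 6 of these were listed at 0 in all libraries (Slc22a2, Calcr, Snrpn, Snurf, Dio3 and Ins2), and 24 passed a mean signal of 10. The genes with the highest signal were Zrsr1, a splicing factor gene, with a mean signal of 1477, Gnas, the stimulatory G protein subunit, with 361, Peg12 with 192 and the cation transporter Slc22a3 with 167. Zrsr1 varied widely between libraries, from 426 to 3104 in WT and from 369 to 3225 in KO. Peg12 ran from 94.7 to 373 in WT and from 98.3 to 316 in KO, so the levels of both are uncertain. Gnas and Slc22a3 varied less. Zrsr1 shares 8.19% and Gnas 19.9% of 31-base stretches with other transcripts. None of the 6 members reached the mean signal of 10 that 24 of the 62 other imprinted genes passed. Of the 21536 genes above 0 in at least 1 library, 8887 passed it. Of these 21536 genes, 47.1% had a higher mean signal than Grb10, 59.4% than Igf2r, 61.1% than Ndn and 96.1% than Dlk1.

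**Figure D4:**
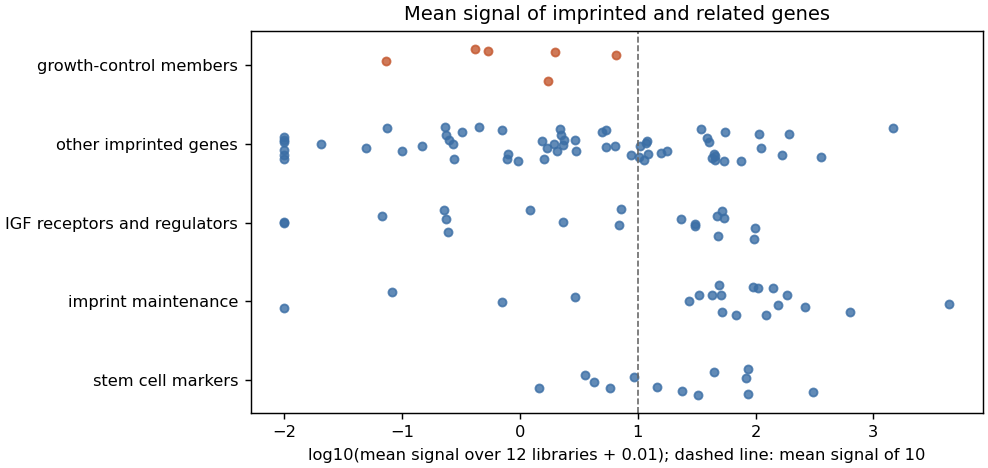
Mean signal over 12 libraries (x axis, log10 of signal + 0.01) of single genes in 5 groups of genes (y axis, points spread vertically for legibility), with the 6 members in orange. All 6 members lie left of the dashed line at a mean signal of 10, and genes listed at 0 lie at -2.

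Among the 24 genes, 1 was higher in KO at an unadjusted limma p under 0.05 and 0 were lower, against 3.67% of the 8887 genes past a mean signal of 10, of which 176 were higher and 150 lower. Scaling each library to the median total signal made this 191 higher and 50 lower. The gene was Inpp5f, a phosphoinositide phosphatase, with a mean signal of 63.2 ± 13.3 (SD, n = 6) in WT and 87.3 ± 25.1 (SD, n = 6) in KO and a log2 fold change of 0.44 (standard error 0.21, limma p = 0.04999, adjusted p = 0.9996; exact permutation test, p = 0.0671). The median log2 fold change was -0.01 over the 24 genes and 0.00 over all 8887, and 12 of the 24 and 4507 of the 8887 were above 0.

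**Figure D5:**
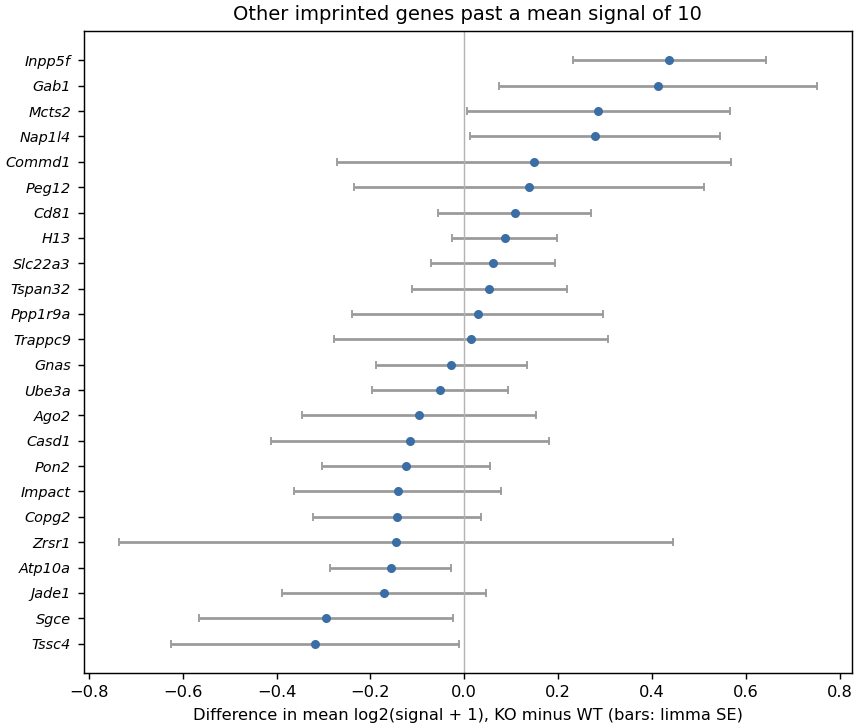
Difference in mean log2(signal + 1), KO minus WT (x axis, bars are the standard error from limma), for the 24 other imprinted genes past a mean signal of 10 (y axis). The differences lie on both sides of 0, 12 above and 12 below, and Inpp5f is at the top with 0.44.

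Neighbours of the members in their clusters were chosen for description after their values were seen. In the Ndn cluster, Magel2, like Ndn a gene of the MAGE family, had a mean signal of 0.180 in WT and 0 in KO, Mkrn3 2.63 and 1.74, Peg12 193 and 191, and the ubiquitin ligase Ube3a 46.0 and 44.5. In the imprinted region that begins at H19 and Igf2, the cell cycle inhibitor Cdkn1c had 0.928 in WT and 0.457 in KO, Phlda2 0.326 and 0.297, Kcnq1 0.0516 and 0.0266, Osbpl5 5.91 and 4.82, Tssc4 13.5 and 10.2, and Slc22a18 3.30 and 1.19. In the same region the means of Nap1l4 (37.3 in WT and 50.7 in KO), Cd81 (38.4 and 41.4), Tspan32 (105 and 109) and Ascl2 (0 and 0.443) were on the other side. Slc22a18, a transporter, was above 0 in 6 WT and 3 KO libraries and was the only 1 of the 62 other imprinted genes with an exact permutation p under 0.05 (log2 fold change -1.18, p = 0.0411, not adjusted), where 2.86% of all genes above 0 had such a p. Near Peg3, Usp29 had 1.56 in WT and 1.6 in KO and Zim1 0.350 and 0.532. In the Dlk1 cluster, Rtl1 had 0.0612 in WT and 0.212 in KO and Begain 1.23 and 0.298. Outside these clusters, the paternally expressed Mest had 2.46 in WT and 1.42 in KO, and Zdbf2 had 4.59 in WT, from 3 libraries, and 0 in KO (exact permutation test, p = 0.182).

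Of 20 genes that keep or read imprints, 16 passed a mean signal of 10, and 0 had an unadjusted limma p under 0.05 (adjusted p = 0.9996 for Dnmt1), with a median log2 fold change of -0.06. The maintenance DNA methyltransferase Dnmt1 had a mean signal of 649 ± 89.5 (SD, n = 6) in WT and 616 ± 128 (SD, n = 6) in KO, its partner Uhrf1 265 in WT and 264 in KO, and Trim28, the corepressor that holds methylation at imprints, 190 and 176. Ctcf, the insulator protein that binds between H19 and Igf2, had 43.6 in WT and 41.3 in KO. Ctcfl, its relative, had the highest mean of the list, at 4638 ± 3749 (SD, n = 6) in WT and 4165 ± 2288 (SD, n = 6) in KO. Its range between libraries was wide, from 2083 to 9770 in WT and from 1521 to 8116 in KO. The sequence that Ctcfl shares with other transcripts was not examined, so its level is uncertain. The 4 genes below the filter were Zfp57, which recruits Trim28 to imprints, with 3.93 in WT and 1.88 in KO, Zfp42 with 0.902 and 0.478, Dnmt3l with 0.146 and 0, and Dppa3, listed at 0.

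Of 19 genes that carry or adjust IGF signals around Igf2, Igf2r and Grb10, 9 were tested, 0 were higher and 1 was lower in KO at an unadjusted limma p under 0.05, against 3.67% of all genes tested, and the median log2 fold change was -0.13. Hmga2, a chromatin protein upstream of Igf2bp2, had a mean signal of 63.6 ± 11.7 (SD, n = 6) in WT and 40.5 ± 11.6 (SD, n = 6) in KO, with a log2 fold change of -0.67 (standard error 0.21, limma p = 0.00544, adjusted p = 0.9996; exact permutation test, p = 0.0130). Igf2bp2, a protein that binds the Igf2 mRNA, lay below the filter, at 4.39 in WT and 9.34 in KO (log2 fold change 1.13, exact permutation test, p = 0.0238, not adjusted). Igf1r, the receptor through which IGF2 signals, had 54.9 in WT and 52.5 in KO, Igfbp4, a binding protein of the IGFs, 91.0 and 107, and Foxo3, a target of the pathway, 98.6 and 96.9. Igf1, the other ligand of this receptor, had a mean signal of 0.216.

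Markers of the cells in the sort were compared in the same fit. Of 8 stem cell markers tested, 0 had an unadjusted limma p under 0.05, against 3.67% of all 8887 genes tested. Of 8 markers of multipotent progenitors, 1 was lower at that threshold. This was Flt3, a receptor of early progenitors, with a log2 fold change of -0.51 (adjusted p = 0.9996 from limma). Of the stroma markers, 2 were tested and 1 was lower at that threshold. This was Pdgfrb, with a mean signal of 90.1 in WT and 69.3 in KO (log2 fold change -0.37, adjusted p = 0.9996 from limma). Of 3 endothelial and 4 mature lineage markers tested, 0 had an unadjusted p under 0.05. The part of these markers in the levels of the members was not tested.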

How the data were processed

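Mouse LSK cells (Lin- Sca-1+ KIT+) were sorted from bone marrow, total RNA was extracted, and the CATS RNA-seq kit was used to make 6 WT and 6 Fancg KO libraries. The authors deposited 1 signal value for each gene in each library, which the table's title and values point to as kallisto's estimated count after scaling by a size factor; the mouse build, annotation and kallisto version are not given in the sources used here. Kallisto divides reads among transcripts, so shared sequence makes a level uncertain. All columns were matched to labels (0 unused).

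The members and lists were chosen with earlier results of these data known. Every member was named, as were listed genes with an unadjusted limma p under 0.05 and up to 4 genes of each list by mean signal; other names were chosen after their values were seen. limma 3.58.1 (R 4.3.3, trend, two-sided, Benjamini-Hochberg, no covariate) was fitted to log2(signal + 1) of the 8887 genes whose mean signal was 10 or more. No member passed this filter, so exact permutation tests over all 924 divisions of the 12 libraries (smallest p = 0.0022) stand in for the planned fit. Intervals come from limma without a filter. Tests were checked on simulated data. Exon lengths, coordinates and 31-base stretches were taken from GENCODE M21 (GRCm38), in which 35929 of 35999 gene names were found, and promoter windows from RefSeq (GRCm38.p6). No source says that mice of a label came from separate litters.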

Additional observations from a re-analysis of the deposited data

Results flagged for a closer look

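In each group of 6 libraries, a library was set apart when its gap to the nearest of the others as a share of the range exceeded Dixon's 95% critical value. This was so in 4 of 24 groups tested. The criterion passes about 1 in 20 groups by chance, but that rate does not hold where the other 5 libraries are all at 0, as in 2 of the 4, since any value above 0 then passes. All 4 are low genes among the members. Igf2 had a signal of 0.139 in WT replicate 5 and was listed at 0 in the other WT libraries. In KO replicate 5, Igf2 reached 4.63, where the other KO libraries held 0 to 1.13. Ndn had a signal of 3.21 in KO replicate 7 and was listed at 0 in the other KO libraries. In KO replicate 2, Peg3 reached 1.79, where the other KO libraries held 0 to 0.508. KO replicate 7 was also low in Y-linked transcripts.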

How the results depend on the processing

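The count of 326 genes with an unadjusted limma p under 0.05 became 836 without a filter, 91 with a mean signal of at least 50, 124 (86 higher, 38 lower) with libraries scaled without Lars2, 241 (191 higher, 50 lower) with libraries scaled to the median total, and 476 with the replicate block. When each library was left out in turn it ran from 275 to 383. Adjusted calls were 0 in all these fits and 1 without both libraries numbered 3.

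Igf2r and Igf2 kept their direction and stayed above a p of 0.05 in all alternatives run, with log2 fold changes of -0.46 to -0.13 and 0.22 to 0.94. Ndn kept its direction throughout, from -1.79 to -0.47. It passed a p of 0.05 without WT replicate 3 and KO replicate 7, low in Y-linked signal (-1.61, exact permutation test, p = 0.0476) and in limma without a filter, with trend (-1.29, p = 0.0286) and without (-1.29, p = 0.0290), and ran from -1.63 to -1.005 when each library was left out. Grb10 changed sign without these 2 libraries (-0.020) and ran from -0.042 to 0.48 when each library was left out. Peg3 changed sign with quantile normalization (0.011) and ran from -0.32 to 0.071 when each library was left out. Dlk1 changed sign with quantile normalization (-0.083) and without both libraries numbered 3 (-0.0096), and ran from -0.040 to 0.050. The cause of these changes was not tested. A mean signal of at least 50 left no member, and the 7 planned correlations were not run, since 4 of their genes were not analysed here.

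Same-numbered WT and KO libraries correlated at 0.09 to 0.36, with a mean of 0.20, against a mean of -0.04 for different numbers. Libraries with the same number were thus more alike, although not every library correlated best with its own number. The main tests were planned without the numbers, and paired versions are given beside them. In exact sign-flip tests of the pairing, Ndn was lower in KO in 5 of 6 pairs (-1.29, p = 0.156), and limma with the replicate block gave p = 0.0711. No member, Ndn included, had a p under 0.05 in either of these paired tests. Depth limits all 6 genes: none exceeded 13.17 approximate reads in a library.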
